A study of Rattus norvegicus with 14 samples.

Results

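The receptors described here are the peroxisome proliferator-activated receptors (PPARs), the retinoid X receptors (RXRs) with which they pair, the liver X receptors (LXRs) that also pair with RXRs, and PGC-1alpha, a coactivator of PPARs. They were taken by gene name from the raw count table whatever their values. Of 9 listed genes, 8 had a row among 18174: Ppara, Ppard, Pparg, Rxra, Rxrb, Nr1h2, Nr1h3 and Ppargc1a. Rxrg was not analysed here. 6 of these 8 passed the filter on low counts that left 12719 genes for testing, and Pparg and Nr1h3 lay below it.

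The tissue was testis from fetuses of Harlan Sprague Dawley rat dams, which received corn oil or, in corn oil, the phthalate diester plasticizer dicyclohexyl phthalate (DCHP) by oral gavage on gestational days 14 to 18. Testes were collected on gestational day 18 and pooled within each litter, so each of the 14 libraries is 1 litter. The vehicle, 100, 300 and 600 mg/kg/day groups had 3 litters each and the 900 mg/kg/day group had 2. RNA was read with TempO-Seq, a targeted assay that sequences probe pairs joined on their target transcript. Levels are given as CPM, counts scaled to a common library total after TMM correction of the totals for composition. Because each gene was read through its own probes, levels were compared between litters and not between genes.

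PPARs are nuclear receptors that sense fatty acids and bind DNA as heterodimers with an RXR. PPARalpha, encoded by Ppara, drives fatty acid oxidation in liver, PPARdelta (Ppard) does so in many tissues, and PPARgamma (Pparg) is the main regulator of fat cell differentiation. LXRalpha (Nr1h3) and LXRbeta (Nr1h2) sense oxysterols, also bind as heterodimers with RXR, and raise cholesterol efflux. Phthalate diesters are hydrolysed in the gut to monoesters, several of which activate PPARs in reporter assays. On that background the receptors are candidate direct targets in this tissue. The files measure the level of their RNA, not their activity.

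The promoters of the RXR and LXR pairs are shown first because the RXR start regions differ in G and C content and the LXR start regions in CpG density. Sequences run from 250 bases before the annotated start to 50 bases after it, 300 bases in all, and come from RefSeq on build GRCr8. Rxra lies on the plus strand at chr3:31387642-31387941, Rxrb on the minus strand at chr20:4824610-4824909, Nr1h2 on the minus strand at chr1:104183814-104184113 and Nr1h3 on the minus strand at chr3:97623180-97623479. Capitals mark the GC box GGGCGG on either strand, the letters bound by Sp1-type factors.
Rxra: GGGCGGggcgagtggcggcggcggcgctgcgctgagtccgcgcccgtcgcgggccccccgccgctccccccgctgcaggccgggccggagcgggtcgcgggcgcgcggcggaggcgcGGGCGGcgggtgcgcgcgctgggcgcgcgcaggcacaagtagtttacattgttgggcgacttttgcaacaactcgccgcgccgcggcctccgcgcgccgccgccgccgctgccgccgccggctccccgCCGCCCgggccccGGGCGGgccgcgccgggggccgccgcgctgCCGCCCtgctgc
Rxrb: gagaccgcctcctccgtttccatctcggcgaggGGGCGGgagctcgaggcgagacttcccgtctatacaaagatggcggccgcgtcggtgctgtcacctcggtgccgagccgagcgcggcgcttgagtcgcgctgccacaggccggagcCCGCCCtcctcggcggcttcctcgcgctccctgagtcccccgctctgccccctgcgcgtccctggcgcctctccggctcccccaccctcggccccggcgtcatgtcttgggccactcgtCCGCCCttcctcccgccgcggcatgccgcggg
Nr1h2: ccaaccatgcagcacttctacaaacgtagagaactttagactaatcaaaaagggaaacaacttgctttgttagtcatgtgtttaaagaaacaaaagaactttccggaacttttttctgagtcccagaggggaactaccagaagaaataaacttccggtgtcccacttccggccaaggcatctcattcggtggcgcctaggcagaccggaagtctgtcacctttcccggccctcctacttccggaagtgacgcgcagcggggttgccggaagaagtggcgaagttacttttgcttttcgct
Nr1h3: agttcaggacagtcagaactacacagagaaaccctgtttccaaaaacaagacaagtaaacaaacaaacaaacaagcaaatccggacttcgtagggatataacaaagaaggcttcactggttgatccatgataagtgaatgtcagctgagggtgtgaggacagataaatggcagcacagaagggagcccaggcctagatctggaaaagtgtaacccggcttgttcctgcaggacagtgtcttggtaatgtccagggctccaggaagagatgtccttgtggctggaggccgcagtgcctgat

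The Rxra start region held 5 GC boxes and 84.7% G and C, at the 99.9th percentile of 33469 rat promoter windows. Rxrb held 3 GC boxes and 74.0% G and C, at the 96.3rd percentile. The ratio of observed to expected CpG was 1.15 in Rxra, 1.03 in Rxrb and 0.846 in Nr1h2, but 0.236 in Nr1h3, against a median of 0.392 over all windows. The LXR genes therefore had start regions of like base content, 48.7% for Nr1h2 and 48.0% for Nr1h3, and different CpG density. Neither held a GC box, which 33.1% of all windows held. Of the other members, Ppara had a ratio of 0.802, Ppargc1a of 0.222, and the windows at the annotated starts of Pparg of 0.475 and 0.224. Ppard was not among the windows used.

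3 motifs of nuclear receptor binding were searched on both strands, each match of the longer ones also being a match of the shortest. The receptor hexamer AGGTCA occurred in 16.2% of all windows. Its direct repeat with a spacer of 1 base, AGGTCANAGGTCA, the arrangement PPAR and RXR heterodimers prefer, occurred in 0.0538%. The repeat with a spacer of 4 bases, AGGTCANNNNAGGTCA, which LXR and RXR heterodimers prefer, occurred in 0.00598%. No member window held any of them in these exact letters.

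The RXR genes were the most deeply counted members and behaved differently between litters. Rxra encodes RXRalpha and lies at chromosome 3, 10989832 to 11073713, on rn7, the build of the count table. In CPM, the vehicle litters stood at 44.3, 89.8 and 70.6, the 100 mg/kg/day litters at 36.1, 80.9 and 74.2, and the 300 mg/kg/day litters at 80.3, 65.3 and 71.9. The 600 mg/kg/day litters stood at 77.5, 75.6 and 78.4, and the 900 mg/kg/day litters at 49.9 and 64.7. Vehicle litter 1 and 100 mg/kg/day litter 1 lay far below the other litters of their groups, and every treated group overlapped the vehicle group. The fitted log2 fold change of Rxra at 900 mg/kg/day was -0.25 ± 0.31 (SE, adjusted p = 0.857), and the 95% interval ran from -0.92 to 0.42. At 600 mg/kg/day it was 0.18 ± 0.28 (adjusted p = 0.951).

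Rxrb encodes RXRbeta and lies at chromosome 20, 4816815 to 4828774. Its level in CPM was 82.9, 81.1 and 75.9 in vehicle litters, 79.8, 75.3 and 84.4 at 100 mg/kg/day, and 88.0, 71.1 and 79.5 at 300 mg/kg/day. At 600 mg/kg/day it was 89.6, 81.6 and 76.2, and at 900 mg/kg/day 82.0 and 80.0. All 14 litters lay in that narrow band and the groups overlapped throughout. The fitted log2 fold change at 900 mg/kg/day was 0.02 ± 0.12 (adjusted p = 0.973), with a 95% interval from -0.25 to 0.29, which in fold terms is 0.84 to 1.2. Of the members it had the narrowest interval in each dose comparison. The Rxrb gene overlaps Slc39a7, a zinc transporter gene on the opposite strand, its estimated counts were not whole in any library, and whether reads were shared between them was not tested. Rxra counts were whole in 3 of 14 libraries, and those of the other 6 members in all 14.

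**Figure D1:**
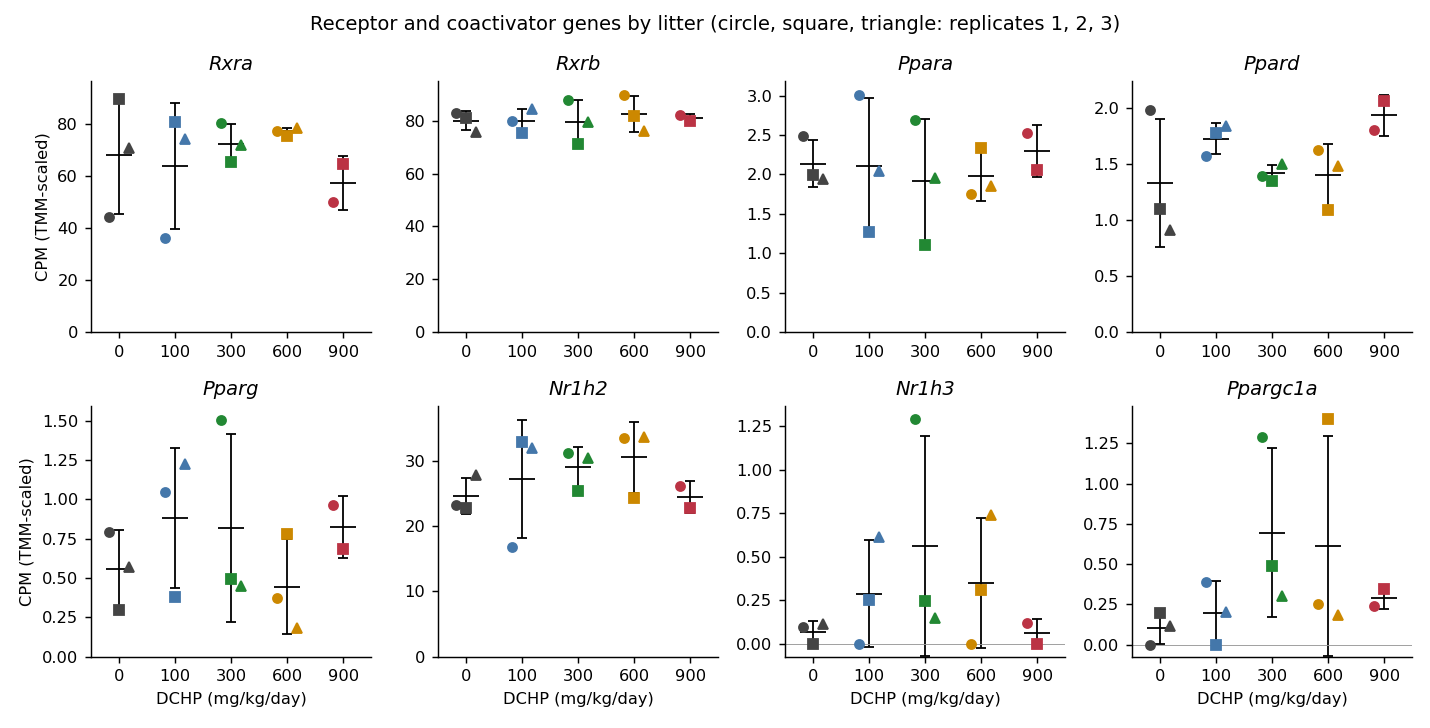
Level of each measured member in each litter, in TMM-scaled CPM on a linear axis, by DCHP dose; symbols are litters, bars are the mean and SD over litters. Rxra spans 36.1 to 89.8 CPM with vehicle litter 1 and 100 mg/kg/day litter 1 lowest, while Rxrb spans 71.1 to 89.6 CPM, and Pparg, Nr1h3 and Ppargc1a lie at or below 1.5 CPM.

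Nr1h2, at chromosome 1, 95041967 to 95047378, encodes LXRbeta and was the LXR gene read at depth, with a mean of 228 counts per library. In CPM, the vehicle litters stood at 23.2, 22.7 and 27.8, the 100 mg/kg/day litters at 16.9, 32.9 and 31.9, and the 300 mg/kg/day litters at 31.2, 25.4 and 30.3. The 600 mg/kg/day litters stood at 33.5, 24.2 and 33.7, and the 900 mg/kg/day litters at 26.1 and 22.7. At 600 mg/kg/day 2 of 3 litters were above all vehicle litters, and the other was inside their range. The fitted log2 fold change there was 0.31 ± 0.23 (adjusted p = 0.950), with an interval from -0.18 to 0.81. At 900 mg/kg/day it was -0.01 ± 0.25 (adjusted p = 0.995).

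Nr1h3, at chromosome 3, 77158808 to 77168723, encodes LXRalpha, the LXR of liver and macrophages. It was close to the limit of detection, with counts of 1, 0 and 1 in vehicle litters, 0, 2 and 6 at 100 mg/kg/day, 12, 2 and 1 at 300 mg/kg/day, 0, 2 and 4 at 600 mg/kg/day, and 1 and 0 at 900 mg/kg/day. 4 of 14 libraries were at 0, and 300 mg/kg/day litter 1 held 12 of the 32 counts in all. Summed over litters the vehicle level was 0.0693 CPM, with an exact 95% Poisson interval of 0.0084 to 0.25 that covers counting error only. At 900 mg/kg/day it was 0.0501 CPM (0.00127 to 0.279). The lowest 300 mg/kg/day litter held 1 count, as did 2 vehicle litters. Without the filter the log2 fold change at 300 mg/kg/day was 2.75 ± 1.45 (adjusted p = 0.817), where 1 litter held 12 of 15 counts.

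Of the PPAR genes, Ppara, at chromosome 7, 116832756 to 116895347, had a mean of 17.6 counts per library. Its levels in CPM were 2.48, 1.99 and 1.94 in vehicle litters, 3.00, 1.27 and 2.04 at 100 mg/kg/day, and 2.69, 1.11 and 1.95 at 300 mg/kg/day. They were 1.75, 2.33 and 1.85 at 600 mg/kg/day, and 2.53 and 2.06 at 900 mg/kg/day. All groups overlapped and no order with dose was seen. The log2 fold change at 900 mg/kg/day was 0.09 ± 0.41 (adjusted p = 0.957), with an interval from -0.79 to 0.97, which in fold terms is 0.580 to 1.96.

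Ppard, at chromosome 20, 6298785 to 6363969, had a mean of 13.1 counts per library. In CPM it was at 1.99, 1.09 and 0.914 in vehicle litters, 1.57, 1.78 and 1.84 at 100 mg/kg/day, and 1.40, 1.35 and 1.5 at 300 mg/kg/day. It was at 1.63, 1.09 and 1.48 at 600 mg/kg/day, and 1.81 and 2.06 at 900 mg/kg/day. Vehicle litter 1 stood about as high as the 900 mg/kg/day litters, and the other vehicle litters were at or near the lowest treated litter. The log2 fold change at 900 mg/kg/day was 0.53 ± 0.38 (adjusted p = 0.852), and without vehicle litter 1 it was 0.94 (adjusted p = 0.337). When the groups were put in order of mean level, Ppard was the member with neighbouring groups that did not overlap, the 300 mg/kg/day litters lying below the 100 mg/kg/day litters, and 15.4% of all tested genes had at least 1 such pair. With library totals in place of TMM it had 2 such pairs, as did 1.09% of genes with 2 or more.

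Pparg, at chromosome 4, 148423194 to 148548469, lay below the filter, with 85 counts over all libraries. Its counts were 8, 3 and 5 in vehicle litters, 8, 3 and 12 at 100 mg/kg/day, 14, 4 and 3 at 300 mg/kg/day, 3, 5 and 1 at 600 mg/kg/day, and 8 and 8 at 900 mg/kg/day. The summed vehicle level was 0.554 CPM (exact 95% Poisson interval 0.32 to 0.90), and the summed 900 mg/kg/day level was 0.802 CPM (0.459 to 1.30). These intervals cover counting error only and not the spread between litters. Without the filter the log2 fold change at 900 mg/kg/day was 0.57 ± 0.75 (adjusted p = 0.889 in edgeR's quasi-likelihood test). At 600 mg/kg/day it was -0.32 ± 0.75 (adjusted p = 0.956 in the same test).

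Ppargc1a, at chromosome 14, 58861144 to 59512657, encodes PGC-1alpha, which raises mitochondrial gene transcription. Its counts were 0, 2 and 1 in vehicle litters, 3, 0 and 2 at 100 mg/kg/day, 12, 4 and 2 at 300 mg/kg/day, 2, 9 and 1 at 600 mg/kg/day, and 2 and 4 at 900 mg/kg/day. By counts each treated group met or overlapped the vehicle litters, since vehicle litter 2, 300 mg/kg/day litter 3 and 900 mg/kg/day litter 1 each held 2 counts. The gene passed the filter, which asks for 1.23 CPM in at least 2 libraries, only through 300 mg/kg/day litter 1 and 600 mg/kg/day litter 2. Its log2 fold change at 300 mg/kg/day was 2.62 ± 1.1, with an unadjusted p of 0.0322 and an adjusted p of 1.0 in edgeR's quasi-likelihood test. The 95% interval ran from 1.20-fold to 31.8-fold. The summed levels were 0.104 CPM in vehicle (exact Poisson interval 0.0214 to 0.304) and 0.746 CPM at 300 mg/kg/day (0.442 to 1.18). These Poisson intervals cover counting error only and not the spread between litters, so they do not test a difference. At 300 mg/kg/day litter 1 held 12 of 18 counts. The library with the most Ppargc1a counts at 300 mg/kg/day also held the highest counts of Pparg and Nr1h3. Among 14 libraries it ranked highest for the summed adrenal markers, at 2.79 CPM, and in place 2 for macrophage markers, at 62.6 CPM, and adipocyte markers, at 17.2 CPM. In the remaining marker lists its places ran from 6 to 13. The other library high in Ppargc1a, 600 mg/kg/day litter 2, ranked highest for erythroid markers and in place 2 for skeletal muscle markers, at 73.1 CPM. Its places in the remaining lists ran from 3 to 12. The part of these cells in the counts was not tested.

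Across the dose comparisons 0 of 6 tested members passed an adjusted p of 0.05 in edgeR's quasi-likelihood test, with adjustment over all 12719 genes. The share of all genes called was 0% at 100 mg/kg/day, 0.0472% at 300 mg/kg/day, 0.22% at 600 mg/kg/day and 0.252% at 900 mg/kg/day, so a count of 0 among 6 was near the background. For the slope over dose 0.425% of all genes were called and for any difference among the 5 groups 0.157%, again with 0 of 6 members. At an unadjusted p under 0.05 the single member was Ppargc1a at 300 mg/kg/day, where 3.65% of all genes met that limit. That gene was tested only because libraries at 300 and 600 mg/kg/day carried it past the filter, so its p is no support for a difference at those doses. No member met the limit in the other comparisons, where the share of all genes was 3.4% at 100, 4.79% at 600 and 4.99% at 900 mg/kg/day, 5.09% for the slope and 3.53% for any difference. DESeq2 likewise called 0 members after adjustment, with 1 at an unadjusted p under 0.05 at 300 mg/kg/day and none elsewhere. It gave no adjusted p for Ppargc1a at 300, 600 and 900 mg/kg/day or for any difference.

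Of the 5 tested members other than Ppargc1a, none had all litters of a dose group above all vehicle litters in CPM, as did 2.99%, 4.88%, 5.06% and 10.3% of tested genes at the rising doses. In CPM Ppargc1a did so at 300 and 900 mg/kg/day, where equal counts of 2 were divided by different library totals. None of the 6 had all treated litters below all vehicle litters, as did 2.99%, 4.46%, 5.92% and 8.83% of all genes at the rising doses. Slopes were small against their errors, at -0.004 ± 0.029 log2 per 100 mg/kg/day for Rxra, 0.004 ± 0.011 for Rxrb, 0.007 ± 0.024 for Nr1h2, 0.005 ± 0.035 for Ppara and 0.030 ± 0.035 for Ppard. The adjusted p of each slope was 1.0.

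**Figure D2:**
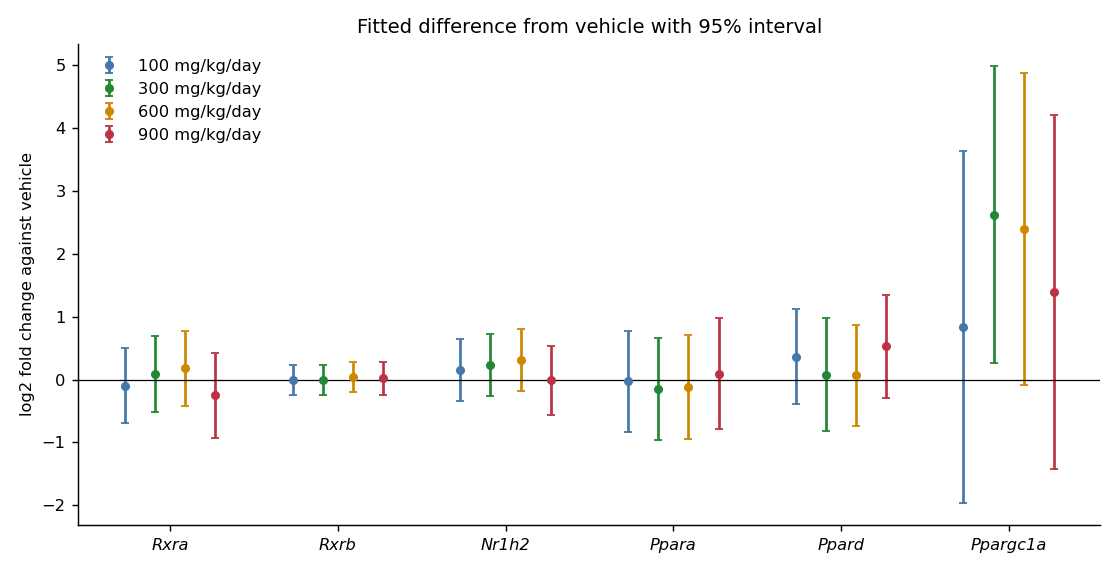
Fitted log2 fold change of each tested member against vehicle at each dose, with 95% intervals from edgeR's quasi-likelihood fit. Intervals are narrowest for Rxrb, at -0.25 to 0.29 for 900 mg/kg/day, and widest for Ppargc1a, whose interval at 300 mg/kg/day, 0.26 to 4.99, does not reach 0 before adjustment.

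The spread between litters of one dose group was measured by the biological coefficient of variation, the part of the spread beyond counting error. For Rxra it was 0.245, at the 86.7th percentile of the 1493 genes within 0.5 log2 units of its mean count. For Rxrb it was 0.118, at the 9.18th percentile of 1405 genes. Nr1h2 was at 0.202 and the 62.4th percentile. Ppara was at 0.237 and the 24.6th percentile, Ppard at 0.172 and the 2.96th, and Ppargc1a at 0.572 and the 9.43rd of 53 genes. Genes of so low a count were tested only where at least 2 libraries reached 1.23 CPM, which selects uneven counts. The percentile of Ppargc1a among them therefore does not show a steady level, and among all tested genes it was the 96.3rd. The RXR genes, with like depth, thus stood in the upper and the lower part of the genes of their depth.

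**Figure D3:**
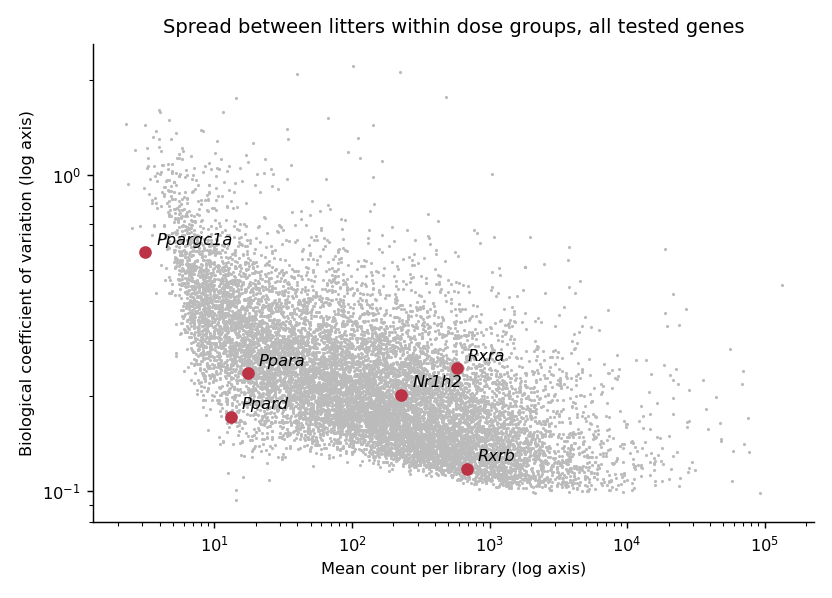
Biological coefficient of variation against mean count per library for all 12719 tested genes (grey) and the tested members (red), both axes logarithmic. At means of 576 and 681 counts, Rxra lies at 0.245 and Rxrb at 0.118.

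Rxra followed the main axis of variation among the litters. The first principal component of all tested genes other than the members held 36.1% of the variance, and 4 litters scored from -65.1 to -22.8 on it: vehicle litter 1, 100 mg/kg/day litter 1 and both 900 mg/kg/day litters. The other 10 scored from -1.85 to 35.6. Over 14 litters the log2 level of Rxra had r = 0.965 and rho = 0.912 with this score (permutation test, adjusted over 6 members, p = 6e-05 and 0.00012; the unadjusted p for r, 1e-05, is the smallest that the permutations can give). Without the litters farthest from the median, 100 mg/kg/day litter 1 and vehicle litter 1, r was 0.930. Without all 4 low litters it was 0.840, and on deviations from dose group means it was 0.982. In |r| 342 tested genes stood at least as high as Rxra, which was at the 97.3rd percentile, so the relation was shared with many genes.

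Nr1h2 had r = 0.743 and rho = 0.675 with the score (permutation test, adjusted p = 0.0063 and 0.0285). On deviations from dose group means its r was 0.726. Without the 2 farthest litters its r was 0.474 (permutation test, adjusted p = 0.363), so the relation passed only with those litters kept. In |r| 4439 tested genes stood at least as high, which puts Nr1h2 at the 65.1st percentile. Ppara had r = -0.562 and rho = -0.631 (adjusted p = 0.0737 and 0.0369), and -0.315 without them, with 6659 genes at least as high in |r|. Rxrb had r = -0.025 and rho = -0.112 (adjusted p = 0.997 and 0.704), Ppard r = -0.375 and rho = -0.253 (0.282 and 0.459), and Ppargc1a r = 0.001 and rho = -0.367 (0.997 and 0.297).

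**Figure D4:**
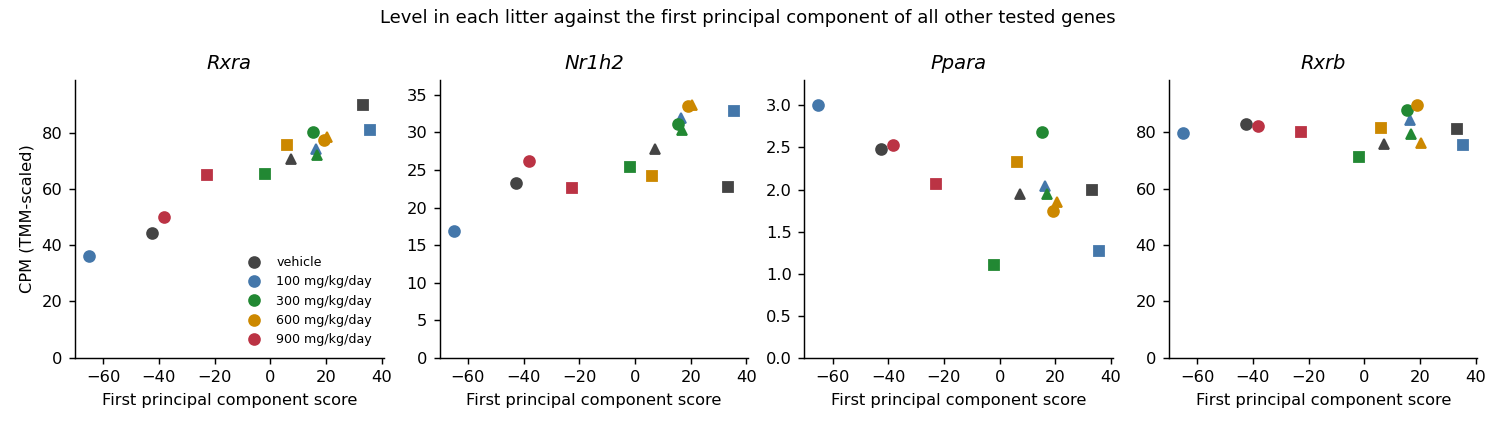
TMM-scaled CPM of 4 members in each litter, with linear axes from 0, against the score on the first principal component of all other tested genes; colours are dose groups and symbols are litters. Rxra rises along the score from 36.1 CPM at -65.1 to 80.9 CPM at 35.6, and Rxrb stays between 71.1 and 89.6 CPM.

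Sums of cell type markers varied with Rxra in some lists, in the same or in the opposite direction. Markers of the tissue were present as sums, with 8 of 10 Sertoli markers at 1165 to 1540 CPM and 8 of 8 germ cell markers at 1073 to 1486 CPM. Single markers within these sums were near the floor, with median levels of 0.153 CPM for Fshr, 0.546 CPM for Dazl and 0.316 CPM for Nanos3. The Sertoli sum was carried mainly by Aard, Wt1 and Sox9, with medians of 550, 334 and 327 CPM. Across litters log2 Rxra had r = 0.878 and rho = 0.473 with the Sertoli sum. It had r = -0.889 and rho = -0.820 with the sum of 6 of 7 mesonephric duct markers, as a description over the same 14 libraries. Of 9427 single genes with a mean count of at least 20, 560 reached r of 0.9 with Rxra. For the macrophage sum r was 0.536 and rho 0.618, and for the sum of 3 of 5 adrenal markers, at most 2.79 CPM, they were 0.627 and 0.477. Of the other 8 lists none had an r beyond 0.35 in size. That mesonephric sum was carried by the keratin gene Krt8, at 57.7 to 72.9 CPM in the 4 low litters and 25.3 to 41.0 CPM in the others. The other 5 markers summed to 5.03 to 9.99 CPM, and Pax2 was at 0 counts in 7 of 14 libraries. The adipocyte markers, of which 6 of 9 were in the table, summed to 5.36 to 17.9 CPM with Plin1 at 0 in all vehicle litters, and the 10 macrophage markers summed to 50.4 to 68.9 CPM. The part of these cells in the Rxra, Pparg and Nr1h3 levels was not tested, and in pooled tissue fewer cells of a type and less RNA per cell cannot be told apart.

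Leaving out vehicle litter 1 and 100 mg/kg/day litter 1 changed the call for Rxra at 900 mg/kg/day. The log2 fold change became -0.51 ± 0.15 with an adjusted p of 0.0299 in edgeR's quasi-likelihood test, and Rxra was the only 1 of 6 members called. The litters left out were chosen after the data were seen. At 44.3 and 36.1 CPM they were the lowest in Rxra of their groups, so this p is no support for a difference. In that fit 16.7% of 12608 genes were called at this dose. The comparison then set 2 vehicle litters against 2 litters at 900 mg/kg/day, and the litters left at the low end of the component were the 900 mg/kg/day litters, so dose and component score cannot be told apart there. The slope of Rxra in that fit was -0.042 ± 0.016 (adjusted p = 0.0905). No member was called for the slope or for any difference, as were 11.8% and 10.1% of genes.

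The genes whose levels followed a member most closely were sought among 9427 genes with a mean count of at least 20, by Pearson r of log2 CPM over 14 libraries. For Rxra these were Mbnl1, a splicing regulator, at r = 0.991, Nipbl, the cohesin loader, at 0.988, and Golga7, which acts in protein palmitoylation, at 0.981. A total of 560 genes reached r of 0.9 with Rxra. For Rxrb the closest were the cyclin gene Ccnb1 at 0.739, Focad at 0.738 and the bicarbonate transporter gene Slc4a7 at 0.710, and no gene reached 0.9. For Nr1h2 they were Naalad2 at 0.917, Mlf2 at 0.912 and the glucose transporter gene Slc2a3 at 0.905, with 4 genes at 0.9 or above. None of these 9 genes passed the slope test, each with an adjusted p of 1.0.

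Genes known as PPAR targets, mainly fatty acid oxidation, transport and storage genes, were described next. Of 38 symbols 31 were in the table and 25 were tested. In edgeR's test 0 rose and 0 fell at 100, 300 and 900 mg/kg/day and for the slope, and 1 of 25 fell at 600 mg/kg/day, against 0.22% of all genes called there. At an unadjusted p under 0.05 there were 3, 1, 4 and 4 of 25 at the rising doses and 4 for the slope, where the shares of all genes were 3.4%, 3.65%, 4.79%, 4.99% and 5.09%. DESeq2 called 1 at 900 mg/kg/day, 1 for the slope and 1 for any difference. The median log2 fold change was -0.15, -0.12, -0.14 and -0.07 at the rising doses, beside 0.01, -0.02, -0.02 and 0.02 over all tested genes. With library totals in place of TMM the list median at 900 mg/kg/day was 0.02 and the median over all genes 0.10.

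The gene that fell was Fabp3, which encodes the fatty acid binding protein of heart and muscle. Its levels were 727, 505 and 624 CPM in vehicle litters, 493, 450 and 374 CPM at 100 mg/kg/day, and 439, 496 and 427 CPM at 300 mg/kg/day. At 600 mg/kg/day they were 340, 394 and 343 CPM, and at 900 mg/kg/day 375 and 392 CPM. Each litter of every treated group lay below each vehicle litter. At the rising doses taken 1 by 1, 2.99%, 4.46%, 5.92% and 8.83% of all tested genes did so. The log2 fold change at 600 mg/kg/day was -0.78 ± 0.14 (adjusted p = 0.0433), and the call was lost in 12 of 14 fits that left out 1 litter. The next by slope were Acaa1a, a peroxisomal thiolase gene, at -0.064 ± 0.018 log2 per 100 mg/kg/day (adjusted p = 0.284) and Vnn1, the pantetheinase gene, at -0.064 ± 0.023 (adjusted p = 0.596).

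Of 18 LXR target symbols 13 were in the table and 11 were tested. Scarb1 fell in each comparison with 300, 600 and 900 mg/kg/day, and in the slope test, making 1 of 11 in each, and none rose. Of all genes 0.0472%, 0.22% and 0.252% were called at those doses and 0.425% for the slope. With 1 litter left out the call at 300 mg/kg/day was lost in 8 of 14 fits, and that at 900 mg/kg/day in 2, those without either of its litters. No LXR target was called at 100 mg/kg/day by either edgeR or DESeq2. At an unadjusted p under 0.05 in edgeR there were 2, 2, 4 and 5 of 11 at the rising doses and 3 for the slope. The shares of all genes at that limit were 3.4%, 3.65%, 4.79%, 4.99% and 5.09%. Scarb1, which encodes the HDL receptor SR-BI that brings cholesterol into steroid-making cells, stood at 201, 192 and 165 CPM in vehicle litters and 135, 104 and 72.5 CPM at 100 mg/kg/day. It was at 67.6, 58.4 and 60.3 CPM at 300 mg/kg/day, 41.5, 54.9 and 31.1 CPM at 600 mg/kg/day, and 44.0 and 38.9 CPM at 900 mg/kg/day. All treated litters lay below all vehicle litters. At the rising doses taken 1 by 1, 2.99%, 4.46%, 5.92% and 8.83% of all tested genes did so. The slope of Scarb1 was -0.24 ± 0.03 log2 per 100 mg/kg/day (adjusted p = 0.00396). Scarb1 was itself among the 8 fetal Leydig cell markers. The other 7 summed to 3711 to 7805 CPM in vehicle litters and 1082 to 1334 CPM at 900 mg/kg/day, and their part in the Scarb1 level was not tested.

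None of the 3 tested sterol efflux transporter genes of the LXR list passed the test. Abcg1 was at 17.1, 14.9 and 11 CPM in vehicle litters and 22.9 and 22.5 CPM at 900 mg/kg/day, with a slope of 0.070 ± 0.022 (adjusted p = 0.387). Abca1, named after its values were seen, was at 8.84, 6.77 and 7.32 CPM in vehicle litters and 12 and 15 CPM at 900 mg/kg/day, where its log2 fold change was 0.83 ± 0.23 (adjusted p = 0.334). Both litters at 900 mg/kg/day lay above all vehicle litters for Abcg1 and Abca1, as they did for 10.3% of all tested genes. At 600 mg/kg/day the log2 fold change of Abca1 was 0.17 ± 0.22 (adjusted p = 0.950). Abcg5, with a log2 fold change of -0.35, -0.23, -0.16 and -0.76 at the rising doses and a slope of -0.051 ± 0.063, had the sign of Scarb1. Scd, the stearoyl-CoA desaturase gene, had a mean of 9.43 counts and a slope of -0.29 ± 0.09 (adjusted p = 0.296). The list median was -0.04, -0.14, -0.15 and -0.11 at the rising doses.

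**Figure D5:**
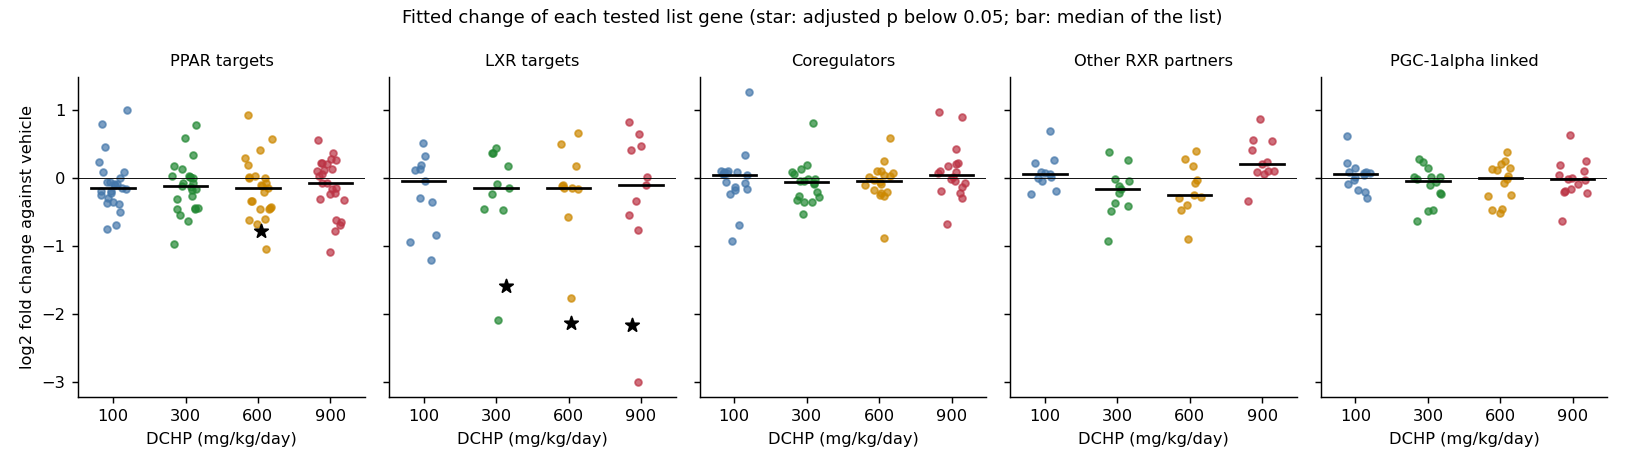
Fitted log2 fold change against vehicle for each tested gene of the 5 lists, by dose; points are genes, stars are genes with an adjusted p below 0.05 and bars are list medians. Stars mark Fabp3 among PPAR targets at 600 mg/kg/day and Scarb1 among LXR targets at 300, 600 and 900 mg/kg/day, and the point at -3.00 among LXR targets is Scd.

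Coregulators that PPARs, RXRs and LXRs recruit were tested for 18 of 22 symbols, 20 of them in the table. None passed in any comparison by edgeR or DESeq2, none was at an unadjusted p under 0.05 in edgeR, and their medians lay between -0.06 and 0.05 at the 4 doses. The smallest trend p values belonged to the corepressor gene Ncor1 (slope 0.022 ± 0.015), Lpin1 (0.084 ± 0.058) and Tbl1xr1 (-0.021 ± 0.017), each with an adjusted p of 1.0. A further list held other nuclear receptors, most of them RXR partners, with 11 of 15 tested. None passed by edgeR or DESeq2, and 1 was at an unadjusted p under 0.05 at 900 mg/kg/day, over dose and for any difference. Of all genes 4.99%, 5.09% and 3.53% met that limit there. The median of this list was 0.07, -0.17, -0.25 and 0.20 at the rising doses. Both 900 mg/kg/day litters were among the 4 low on the component, and vehicle litters ranged widely, from 22.9 to 44.3 CPM for the retinoic acid receptor gene Rara against 37.5 to 39.3 CPM at 900 mg/kg/day. The part of the component in that median was not tested. Nr1d2, a clock repressor gene, had a slope of 0.044 ± 0.014 (adjusted p = 0.459), Thrb 0.080 ± 0.052 and Nr2f2 0.025 ± 0.026.

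Mitochondrial genes linked to PGC-1alpha were tested for 14 of 16 symbols, with 15 in the table. None passed in edgeR's test in any comparison, and 1, 1, 1 and 1 of 14 were at an unadjusted p under 0.05 at the 4 doses and 2 over dose. Of all genes 3.4%, 3.65%, 4.79%, 4.99% and 5.09% met that limit. DESeq2 called 1 at 900 mg/kg/day and 1 over dose. Sod2, the mitochondrial superoxide dismutase gene, was at 380, 438 and 467 CPM in vehicle litters and 268 and 287 CPM at 900 mg/kg/day. Both of those litters were below all vehicle litters, as they were for 8.83% of all tested genes. The slope of Sod2 was -0.060 ± 0.014 (adjusted p = 0.0854). Atp5f1b and Nrf1 followed, with slopes of -0.022 ± 0.009 (adjusted p = 0.844) and -0.014 ± 0.014 (adjusted p = 1.0).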

How the data were processed

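STAR 2.7.8a, Partek and DESeq2 appear in the submitters' processing notes with the genome build rn7, but no role is given to any of them. The count table holds estimated counts per gene that the authors deposited, 83.6% of them whole to a tolerance of 1e-09. They were rounded before testing. The strand setting of counting is not given in the sources used here. A further deposited table of estimated counts multiplies 16 genes, none a member, to undo probe attenuation, and the authors' deposited log2 CPM values were not used.

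Libraries held 5558873 to 11272861 counts. Counts were filtered with filterByExpr, scaled by TMM and fitted over all 14 libraries with edgeR 4.0.16 (robust quasi-likelihood, R 4.3.3). Each dose was compared with vehicle, and a slope over dose and an any-difference test were fitted. P values are two-sided and adjusted by the Benjamini-Hochberg method over 12719 genes. Standard errors follow from each p and its degrees of freedom. Alternatives were DESeq2 1.42.0, other scaling, no filter, attenuation-adjusted counts, left-out litters and the compared groups alone. The fit was tested on simulated data in which 200 genes with a mean count of at least 20 were shifted. That test does not cover genes counted as low as Ppara, Ppard and Ppargc1a. Poisson intervals cover counting error only.

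The members and lists were chosen with earlier results of these data known. The genes named were all members, the 3 genes closest to each well counted member (mean count 20 or more), and of each list those that passed and otherwise the 3 with the smallest trend p. Litter numbers are names only, and the labels do not say when litters were processed.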

Additional observations from a re-analysis of the deposited data

How the results depend on the processing

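No member passed the adjusted threshold under any alternative except Rxra at 900 mg/kg/day without vehicle litter 1 and 100 mg/kg/day litter 1, which made 1 member called. Of 651 member effects recomputed, 650 kept their call and 11 moved by over 1 standard error, 6 of the latter being effects on Ppard. Ppargc1a had no value in the fits where it failed the filter. The relation of Nr1h2 with the first component no longer passed without those 2 litters (r = 0.474) or without the 4 low litters (r = 0.258), both chosen after the data were seen. With library totals Ppard had 2 pairs of neighbouring dose groups that did not overlap, in place of 1, and 1.09% of tested genes had 2 or more.

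The PPAR target count at 600 mg/kg/day was 0 under RLE size factors, with no filter and with only the compared groups, and 0 to 1 with 1 litter left out. The LXR target counts at 300 and at 900 mg/kg/day were each 0 to 1 with 1 litter left out, the call at 900 mg/kg/day being lost without either of its litters. DESeq2 called 1 PPAR target at 900 mg/kg/day, 1 over dose and 1 for any difference, and 1 PGC-1alpha linked gene at 900 mg/kg/day and 1 over dose. With 1 litter left out the PGC-1alpha linked count was 0 to 1 at 900 mg/kg/day and over dose, and with the dose group number as the scale 1 PPAR target and 1 PGC-1alpha linked gene passed.

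Without vehicle litter 1 and 100 mg/kg/day litter 1, counts at 900 mg/kg/day, over dose and for any difference were 7, 6 and 7 for PPAR targets, 6, 4 and 2 for LXR targets, 1, 2 and 1 for coregulators, 4, 3 and 4 for other nuclear receptors and 3, 1 and 1 for PGC-1alpha linked genes, which also had 1 at 600 mg/kg/day. In the same fit the share of all genes called was 16.7%, 11.8% and 10.1%. Over all alternatives the count of all genes called ran from 0 to 2102 at 900 mg/kg/day. The cause was not tested.

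No paired analysis was run because the labels name no pairing of litters. Low counts limit Pparg, Nr1h3 and Ppargc1a, and the 900 mg/kg/day group had 2 litters.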

Other observations

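The genes of the PPAR and LXR lists that passed at 900 mg/kg/day once vehicle litter 1 and 100 mg/kg/day litter 1 were left out went in both directions. Of 7 PPAR targets, 3 rose, namely Hadhb (log2 fold change 0.71 ± 0.16), Hadha (0.35 ± 0.11) and Cpt1a (0.69 ± 0.22), which encode mitochondrial fatty acid oxidation enzymes. The other 4 fell, namely the malic enzyme gene Me1 (-1.36 ± 0.25), Vnn1 (-0.93 ± 0.19), Acaa1a (-0.82 ± 0.18) and Fabp3 (-0.59 ± 0.12). Of 6 LXR targets, Abca1 (0.92 ± 0.21), Abcg1 (0.76 ± 0.22), Srebf1 (0.76 ± 0.25) and Apoe (0.59 ± 0.14) rose, and Scd (-3.35 ± 0.88) and Scarb1 (-2.14 ± 0.22) fell. Their adjusted p ran from 0.000385 for Scarb1 to 0.0478 for Srebf1 in edgeR's quasi-likelihood test, where 16.7% of all genes were called. These values are from 2 vehicle litters against 2 treated litters, with dose and the first component score not separable. The litters left out were chosen after the data were seen, so the p values of this fit are no support for a difference. With all 14 libraries Scarb1 alone of these 13 genes passed at this dose.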
